A study of Mus musculus with 194 samples.

Results

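Calling cards record where a transposase has worked on the genome by the reporter transposons it leaves behind. Here transposon insertions read from RNA of 4 Rbp4Cre_TRAP mice were compared with those of 6 GFAPCre mice, 10 of the 47 tables of the series. The members were the tables that the labels name as Rbp4Cre replicates 1 to 4 with TRAP and GFAPCre cortex replicates 1 to 6, without the GFAPCre tables of the Frontflip construct. Each table stands for 1 animal. The question was which glial and which cortical layer loci separate a line used for layer 5 projection neurons from a line used for astrocytes.

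Rbp4Cre is a Cre line used to reach layer 5 projection neurons of the cortex, and GFAPCre uses the promoter of an astrocyte filament gene, which radial glia and neural progenitors can also use, so that neurons born from them may carry its Cre. All animals received AAV on postnatal day 0 to 1. The Rbp4Cre_TRAP material was whole forebrain taken by TRAP (usually understood as affinity purification of translating ribosomes, by which RNA of tagged cells is enriched), with 2 libraries per animal. The GFAPCre material was total RNA of cortex. Per the protocol a cortex was cut into 10 pieces that were extracted and indexed apart. GFAPCre animals 1 to 3 were sequenced in pools with Syn1CreNeg animals and animals 4 to 6 in pools with GFAPCreNeg animals, while the Rbp4Cre_TRAP libraries were in no pool with either. Cre line, tissue, RNA fraction, number of libraries, pool and depth therefore cannot be told apart in this comparison. The virus given to these 2 groups, the transposase and the age at collection are not in the labels. No input RNA of the TRAP was used here. The replicates are called by number alone in the labels, so the p-values measure the spread between these samples.

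The transposon is a self-reporting transposon (SRT), whose transcript runs into the flanking DNA, so that the place of the insertion can be read from RNA. Insertion needs the letters TTAA. An unfused transposase tends to insert where chromatin is open and where proteins that recruit transcription gather, such as the super-enhancers of genes that define a cell type. In the cortex, astrocytes are known for high activity at genes of glutamate uptake (Slc1a3, Slc1a2), gap junctions (Gja1, Gjb6) and water and potassium handling (Aqp4, Kcnj10), under factors such as Sox2, Sox9 and the nuclear factor I family. Layer 5 neurons that project below the cortex are specified by Fezf2 and Bcl11b.

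The TTAA sites themselves can be shown for the starts of 4 genes on which the comparison turns. Each line below is the 250 bases before a start of the gene that RefSeq lists (GRCm38.p6). It is read 5′ to 3′ on the strand of the gene, with every TTAA in capitals. The listed starts of Prdm16 and Bcl11b lie inside the gene bodies used for counting, so that these stretches are within those genes as counted. Slc1a3 (chr15:8710808-8711057, minus strand) and Prdm16 (chr4:154636874-154637123, minus strand) are shown for loci with few Rbp4Cre_TRAP insertions, Bcl11b (chr12:108003415-108003664, minus strand) for a layer 5 gene without a detected difference, and Nfix (chr8:84773411-84773660, minus strand, 1 of its 4 listed starts) for a locus that was higher in Rbp4Cre_TRAP.
Slc1a3: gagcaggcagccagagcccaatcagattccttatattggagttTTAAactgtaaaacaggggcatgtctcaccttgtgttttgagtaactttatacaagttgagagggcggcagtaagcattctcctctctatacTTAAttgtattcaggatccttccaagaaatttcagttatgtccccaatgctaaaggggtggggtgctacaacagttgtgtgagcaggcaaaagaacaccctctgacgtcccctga
Prdm16: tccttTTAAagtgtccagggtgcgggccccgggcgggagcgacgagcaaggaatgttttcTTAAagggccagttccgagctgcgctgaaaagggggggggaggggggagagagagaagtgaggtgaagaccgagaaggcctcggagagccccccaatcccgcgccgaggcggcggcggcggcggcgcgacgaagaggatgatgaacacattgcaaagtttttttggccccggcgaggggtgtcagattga
Bcl11b: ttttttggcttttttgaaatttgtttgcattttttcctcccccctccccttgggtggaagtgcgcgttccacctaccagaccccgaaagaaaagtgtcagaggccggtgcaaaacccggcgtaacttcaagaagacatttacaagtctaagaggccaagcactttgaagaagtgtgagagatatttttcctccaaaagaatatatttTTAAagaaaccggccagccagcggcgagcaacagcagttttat
Nfix: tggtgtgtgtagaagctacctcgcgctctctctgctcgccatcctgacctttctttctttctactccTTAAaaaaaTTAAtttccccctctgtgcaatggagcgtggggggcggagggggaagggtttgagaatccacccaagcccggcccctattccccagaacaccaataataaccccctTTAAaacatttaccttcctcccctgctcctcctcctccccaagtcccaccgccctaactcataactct
At the 2 TTAA sites before Slc1a3, 207 and 115 bases from the start, the GFAPCre animals had 9 insertions each and the Rbp4Cre_TRAP animals 0. At the 2 sites before the listed start of Prdm16 the GFAPCre animals had 37 and 33 insertions and the Rbp4Cre_TRAP animals again 0. The site before the listed start of Bcl11b, 43 bases from it, held 31 GFAPCre insertions and 1 of Rbp4Cre_TRAP. Of the 3 sites before Nfix, the outer 2 held 33 and 28 GFAPCre insertions and 1 and 3 of Rbp4Cre_TRAP. TTAA is common: 48.8% of 31396 RefSeq promoters hold it in the same 250 bases, and a site says only that an insertion is possible. Single sites are too thinly covered in Rbp4Cre_TRAP for a test, and all tests below were made on whole loci or windows.

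Depth set what could be seen. The 4 Rbp4Cre_TRAP animals had 57014, 50345, 40066 and 24408 insertions, and the 6 GFAPCre animals from 600443 to 1505413, so that each GFAPCre animal exceeded every Rbp4Cre_TRAP animal more than 10-fold. The mean of log10 insertions was 4.61 ± 0.16 (SD, n = 4) against 5.91 ± 0.15 (SD, n = 6), a 20.0-fold difference between geometric means (p = 0.0095 in an exact two-sided permutation test, the smallest that the 210 splits allow, and the same after adjustment over 3 tests). In Rbp4Cre_TRAP an insertion rested on 2.05 to 2.45 reads on average and 45.3% to 54.0% of insertions on 1 read. In GFAPCre the means were 8.41 to 24.0 reads and 5.64% to 16.6% had 1 read. There were 1.03 to 1.05 insertions per distinct position and animal in Rbp4Cre_TRAP against 1.34 to 1.54 in GFAPCre. The most insertions counted at 1 position were 3 or 4 in a Rbp4Cre_TRAP animal, with 2 libraries, and 20 in each GFAPCre animal, with 10 pieces. A position could thus be counted more often in GFAPCre. Of 141668 distinct positions of Rbp4Cre_TRAP, 72.2% were also used in GFAPCre, which is 4.96% of the 2063727 positions of that group.

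The placing of insertions along genes differed between the groups. Inside protein-coding genes lay 52.8% ± 0.50 (SD, n = 4) of Rbp4Cre_TRAP insertions and 59.7% ± 0.80 (SD, n = 6) of GFAPCre insertions, where such genes cover 40.0% of the length of chromosomes 1 to 19. Each of the 4 animals, at 52.3% to 53.5%, was below all 6, at 58.5% to 60.5% (p = 0.0095 in the exact permutation test, and also when adjusted). Close to gene ends, at most 1 kb away on either side, it was the other way round, with 8.39% ± 0.12 (SD, n = 4) against 7.48% ± 0.35 (SD, n = 6) and 3.04% of the genome length (p = 0.0095 in the exact permutation test, and also when adjusted). Here too the animals did not overlap, at 8.24% to 8.54% and 6.95% to 8.00%. Among the other cortex groups the share inside genes was 54.1% and 54.2% in the 2 C57bl6J animals, which the labels describe as given Cre-independent viruses, 57.1% to 60.8% in Syn1Cre, a line used for neurons, and 62.3% to 64.5% in GFAPCreNeg, the Cre-negative group. The share near gene ends reached 8.43% in GFAPCreNeg and 8.20% in Syn1Cre, within or close to the Rbp4Cre_TRAP range.

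**Figure D1:**
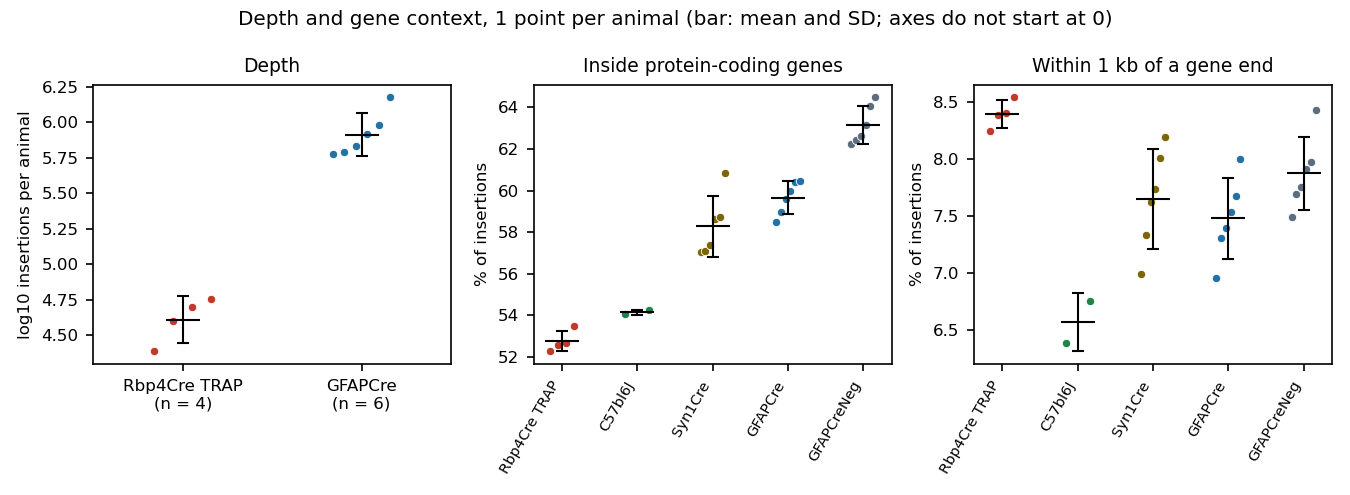
Insertions per animal (left, log10), share of insertions inside protein-coding genes (middle, %) and within 1 kb of a gene end (right, %), 1 point per animal with the group mean and SD. The 4 Rbp4Cre_TRAP animals had the fewest insertions and the lowest shares inside genes, at 52.3% to 53.5%.

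For the comparison along genes, insertions were counted in each locus, that is the body of a protein-coding gene widened by 10 kb at both ends, and tested with edgeR's quasi-likelihood test with TMM scaling and Benjamini-Hochberg adjustment. A normalised count is the number of insertions per 1000000 of the animal (CPM) after that scaling, so that 1 insertion is worth between 17.6 and 31.4 in the Rbp4Cre_TRAP animals. Of 10110 loci with enough insertions, 619 passed an adjusted p of 0.05 (6.12% of those tested), 74 higher in Rbp4Cre_TRAP (0.732%) and 545 lower (5.39%). Loci with 0 Rbp4Cre_TRAP insertions could pass the low-count filter only through GFAPCre, and could then be called only lower. Without that filter 12 of 19410 loci were higher and 1211 lower. The balance also depended on the scaling. The median log2 fold change of the 10110 tested loci was -0.28 with TMM, and scaling by each animal's total insertions brought it to -0.04. That scaling called 425 loci (4.2%), 166 higher (1.64%) and 259 lower (2.56%), so that 39.1% of calls were higher in place of 11.95%. All 74 higher loci and 259 of the 545 lower loci were called under both, and results below give both where they differ. As total scaling raised the fold changes as a whole, a higher locus could hardly lose its call by it. With insertions of at least 2 reads only, 29 loci were higher and 821 lower, and these held 17 of the 74 higher and 445 of the 545 lower loci. With each position counted once per animal, 238 were higher and 684 lower, and these held 66 of the 74 and 452 of the 545. Beyond this, leaving out any 1 of the Rbp4Cre_TRAP animals 1, 2, 3 or 4 left 29, 12, 31 and 40 loci called higher, against 526, 448, 415 and 428 called lower. In bulk RNA fewer cells of a type and fewer insertions or less RNA per cell cannot be told apart.

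The named marker loci of astrocytes were far lower in Rbp4Cre_TRAP. Slc1a3, the glutamate transporter GLAST (chr15:8634124-8710807), had normalised counts of 123, 39.5, 0 and 31.4 in the Rbp4Cre_TRAP animals, which rest on 7, 2, 0 and 1 insertions. In GFAPCre it ranged from 321 to 790 with a median of 523. Every GFAPCre animal exceeded every Rbp4Cre_TRAP animal, and the highest of the latter held most of that group's insertions. The log2 fold change was -3.32 ± 0.38 (SE, adjusted p = 1.6e-10) and -3.07 with total scaling. Without Rbp4Cre_TRAP animal 1 it was -4.60, and over the 24 alternatives run for Slc1a3 it lay between -4.60 and -2.61, past the threshold in all 24. In CPM without TMM, Slc1a3 stood at 580 to 1237 in GFAPCreNeg, 159 to 790 in Syn1Cre and 166 to 180 in C57bl6J, against 0 to 125 in Rbp4Cre_TRAP on the same scale.

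Sox2, a transcription factor of neural stem cells and astrocytes (chr3:34649995-34652461), had normalised counts of 87.8, 39.5, 44.0 and 94.3 in Rbp4Cre_TRAP, from 5, 2, 2 and 3 insertions. The GFAPCre animals ran from 327 to 875 with a median of 542. The groups did not overlap, and the 4 low values lay close together. The log2 fold change was -3.14 ± 0.35 (SE, adjusted p = 5.1e-11), and it passed in all 24 alternatives run for Sox2. It depended on how insertions were counted: with each position counted once per animal it was -1.58 (adjusted p = 0.0025). In GFAPCre the Sox2 locus held 3.84 insertions per distinct position and animal, against 1.00 in Rbp4Cre_TRAP. The part of repeated positions in the difference was otherwise not tested.

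The place of the Sox2 insertions is seen in bins of 10 kb around the start. In GFAPCre the bin just before the start held 1574 insertions and the bin from 10 to 20 kb after it 1142. In Rbp4Cre_TRAP these 2 bins held 9 and 2. A further group of 980 GFAPCre insertions lay 80 to 90 kb before the start, outside the locus as counted, where Rbp4Cre_TRAP had 1. In CPM without TMM, the bin before the Sox2 start stood at 310 in GFAPCre and 53.4 in Rbp4Cre_TRAP. Around Slc1a3 the first 10 kb of the gene were the densest bin in GFAPCre, with 730 insertions against 1. Fezf2 and Bcl11b had their densest bins in the first 10 kb in both groups, with 31 and 17 insertions in Rbp4Cre_TRAP and 537 and 451 in GFAPCre.

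**Figure D2:**
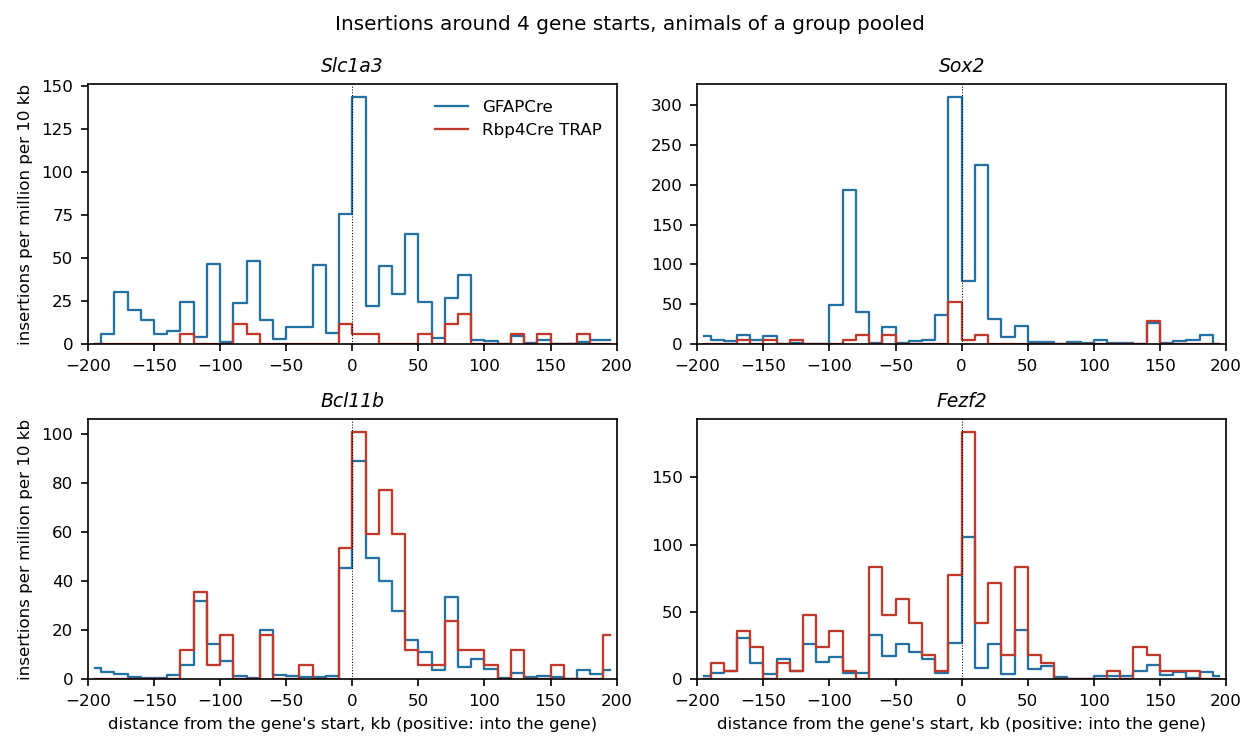
CPM in bins of 10 kb by distance from the start of Slc1a3, Sox2, Bcl11b and Fezf2 (kb, positive into the gene), animals of a group pooled, so that no error can be drawn. The GFAPCre line (blue) is above the Rbp4Cre_TRAP line (red) at the starts of Slc1a3 and Sox2, and the red line is above the blue one at Fezf2. The Rbp4Cre_TRAP lines rest on 17, 25, 94 and 174 insertions in the 400 kb drawn.

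Of the 38 genes of the astrocyte list, 34 loci could be tested. None was called higher and 16 were called lower, where 0.732% and 5.39% of all loci were, with a median log2 fold change of -1.75, against -0.28 over all loci. With total scaling 14 were lower and none higher, and the median was -1.50. With the 4 loci without any Rbp4Cre_TRAP insertion set at their bound, the median was -1.30. The animals of the groups did not overlap, with Rbp4Cre_TRAP lower, at 19 of the 34, where 12.7% of all loci were placed so and 3.03% the other way.

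Among the 6 astrocyte loci with most GFAPCre insertions, Slc1a3 included, 5 were lower and Gpc5 was not called. The genes named in this paragraph that the naming rule does not pick were chosen after their values were seen. Luzp2, a leucine zipper protein gene, had 281, 356, 352 and 314 in Rbp4Cre_TRAP and 599 to 1073.5 (median 750.1) in GFAPCre without overlap, with -1.26 ± 0.21 on the log2 scale (SE, adjusted p = 4.6e-06). Gpc5, a glypican of astrocytes, had 439, 395, 440.5 and 566 against 562 to 762 (median 616), with 1 animal inside the GFAPCre range. The Gpc5 difference of -0.48 ± 0.18 did not pass (adjusted p = 0.084, and -0.23 with adjusted p = 0.55 under total scaling). Ptprz1, a receptor phosphatase of astrocytes and glial precursors, had 87.8, 79.0, 22.0 and 94.3 in Rbp4Cre_TRAP and 248 to 605 (median 395) in GFAPCre, with -2.50 ± 0.36 on the log2 scale (SE, adjusted p = 2.6e-07). Slc4a4, a bicarbonate transporter, had 176, 158, 154 and 157 against 373 to 690 (median 540), or -1.72 ± 0.26 (adjusted p = 5.3e-07). The 4 Slc4a4 values varied little and all lay below the GFAPCre range. Slc1a2, the glutamate transporter GLT-1, was less different: 193, 119, 176 and 346 against 322 to 563 (median 431), with 1 animal inside the GFAPCre range and a log2 fold change of -1.16 ± 0.25 (adjusted p = 0.00079). Hepacam, an astrocyte adhesion protein, had 35.1, 98.8, 44.0 and 62.8 against 139 to 283 (median 196), or -1.78 ± 0.39 (adjusted p = 0.0012).

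Many astrocyte loci held so few insertions that only a bound or a wide ratio can be given. Gjb6, a gap junction protein of astrocytes, had 0 insertions in all 4 Rbp4Cre_TRAP animals and 407 in GFAPCre, where normalised counts were 57.6 to 161, so it was at least 4.50-fold lower against a floor of 3 insertions over the 4 animals (adjusted p = 0.00049). Aldoc, a glycolytic enzyme of astrocytes, had 0 against 229, at least 2.53-fold lower (adjusted p = 0.014, but 0.058 without Rbp4Cre_TRAP animal 4). Ntsr2, a neurotensin receptor of astrocytes, had 0 against 161, at least 1.78-fold lower (adjusted p = 0.025, but 0.055 with total scaling, and not called without any 1 Rbp4Cre_TRAP animal). As counted, the locus of Aldoc overlaps Spag5 and Pigs, and that of Ntsr2 overlaps Lpin1. The water channel Aqp4 had 1 insertion against 342, a rate 11.3-fold lower with a 95% counting interval of 2.02 to 450. The phospholipase gene Pla2g7, whose locus as counted overlaps Tdrd6, had 1 against 391, or 13.0-fold lower (2.32 to 514). Kcnj10, a potassium channel of astrocyte membranes, had 2 against 502 (8.33-fold lower, 2.29 to 69.0), both in animal 4. Gja1, the other gap junction gene, had 2 against 345 (5.72-fold lower, 1.57 to 47.5), both in animal 1. These exact intervals cover counting error only. Gfap itself, whose promoter names the GFAPCre line, had 1 insertion against 123 and was not called (adjusted p = 0.25). The positive values in the list were few: S100b, a calcium-binding protein, at 0.29 ± 0.55 (SE) was the 1 tested astrocyte locus with a log2 fold change above 0, and it was not called.

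**Figure D3:**
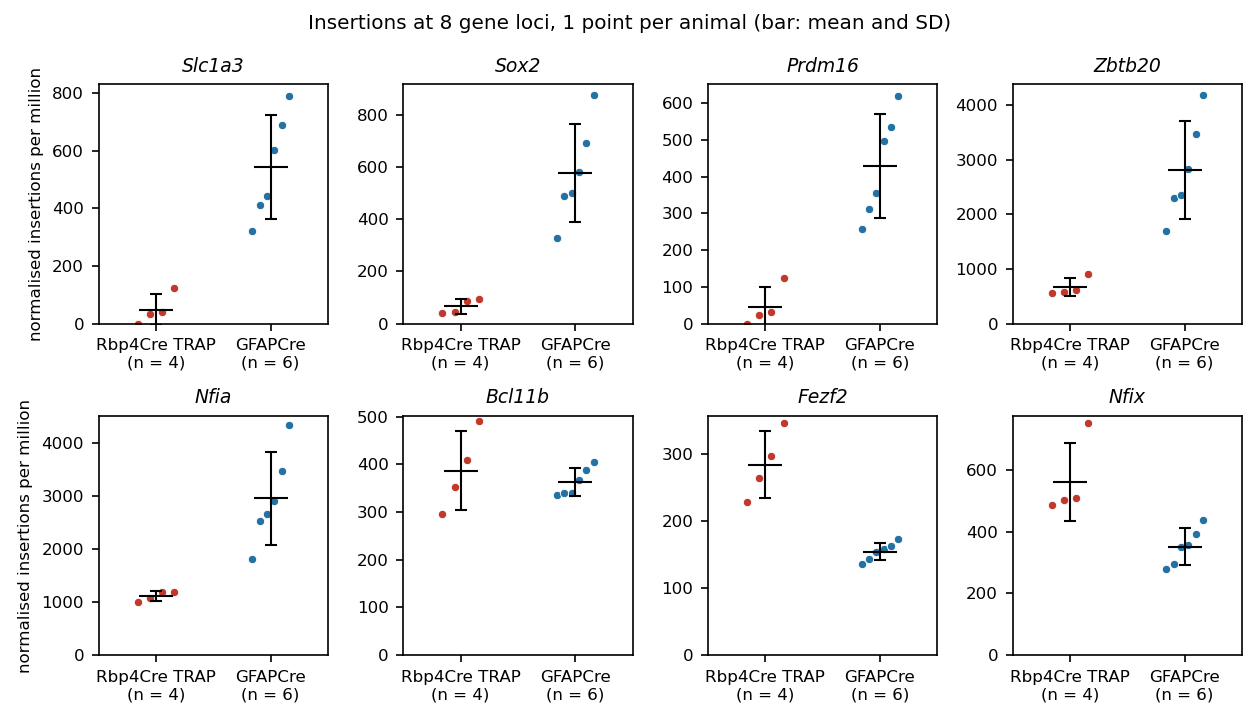
Normalised count (CPM) at 8 loci, 1 point per animal, with the mean and SD of each group. At Slc1a3, Sox2, Prdm16, Zbtb20 and Nfia the 4 Rbp4Cre_TRAP animals lie below all 6 GFAPCre animals, at Fezf2 and Nfix above them, and at Bcl11b the groups overlap.

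Transcription factors of glia and radial glia divided into a larger group that was lower and a smaller one that was not. Of 25 genes 23 were tested, 10 were lower and 1, Nfix, was higher, where 5.39% and 0.732% of all loci were. With total scaling 9 were lower and 4 higher, Nfix joined by Nfib, Hes1 and Tcf7l1. The median log2 fold change was -1.44, and the groups did not overlap at 10 lower and 3 higher loci, against 12.7% and 3.03% of all loci. Prdm16, a zinc finger factor of radial glia and astrocytes (chr4:154316122-154637360), had 123, 0, 22.0 and 31.4 in Rbp4Cre_TRAP, from 7, 0, 1 and 1 insertions, and 257 to 620 (median 426) in GFAPCre. All 4 values were below the GFAPCre range, and the log2 fold change was -3.13 ± 0.41 (SE, adjusted p = 9.9e-09), or -4.84 without animal 1. Pax6, a factor of radial glia whose locus as counted overlaps Elp4, had 0 insertions against 283, at least 3.13-fold lower (adjusted p = 0.0016). Id3, an inhibitor of basic helix-loop-helix factors, had 1 against 342, a rate 11.3-fold lower (2.02 to 450).

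The 3 glial factor loci with most GFAPCre insertions were also lower. They were chosen for their depth after the values were seen. Zbtb20, a zinc finger factor of astrocytes and of hippocampal and upper layer neurons, had 562, 573, 617 and 911 in Rbp4Cre_TRAP, from 118 insertions, and 1698 to 4192 (median 2595) in GFAPCre. Its log2 fold change was -2.12 ± 0.19 (SE, adjusted p = 6.6e-15). Npas3, a neural factor that astrocytes and progenitors use, had 509, 316, 595 and 346 against 1436 to 2519 (median 1692), or -2.03 ± 0.18 (adjusted p = 1.8e-14). Nfia, which drives astrocyte formation, had 1195, 1008, 1079 and 1194 against 1807 to 4337 (median 2773), or -1.40 ± 0.16 (adjusted p = 1.6e-10). All 3 were lower in each Rbp4Cre_TRAP animal than in any GFAPCre animal.

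The other nuclear factor I genes did not follow Nfia. Nfix had 509, 751, 485 and 503 in Rbp4Cre_TRAP and 279 to 437 (median 353) in GFAPCre, without overlap, or 0.70 ± 0.18 on the log2 scale (SE, adjusted p = 0.0083). Nfib had 1493, 1462, 1674 and 1037 against 1008 to 1378 (median 1206). Nfib overlapped, at 0.25 ± 0.13 (adjusted p = 0.32), and passed only with total scaling (0.51, adjusted p = 0.0073). A test of the difference between the 3 genes was not made. Gli3, a factor of Sonic hedgehog signalling, had 70.3, 59.3, 66.1 and 94.3 against 190 to 459 (median 280), or -2.05 ± 0.36 (adjusted p = 3.4e-05). Sox9, which keeps astrocyte identity, had 3 insertions against 274, a rate 3.03-fold lower (1.03 to 14.8), and did not pass (adjusted p = 0.11).

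Of 15 genes of Notch and growth factor signalling, 12 were tested, 6 were lower and none higher, with a median log2 fold change of -1.57 (5.39% of all loci lower, 0.732% higher, median -0.28). With total scaling 4 were lower. Bmpr1b, a BMP receptor, had 299, 316, 220 and 189 against 597 to 1147 (median 763) without overlap, or -1.61 ± 0.22 (SE, adjusted p = 2.9e-08), and was named after its values were seen. Bmpr1a, its relative, had 141, 0, 22.0 and 31.4 against 155 to 232 (median 183), or -1.79 ± 0.40 (adjusted p = 0.0013). The first of these Bmpr1a values came close to the lowest GFAPCre animal, and without animal 1 the log2 fold change was -3.66. The locus of Bmpr1a as counted overlaps other genes, Mmrn2 among them. Egfr, the EGF receptor, had 35.1, 19.8, 22.0 and 31.4 against 87.2 to 236 (median 132), or -2.37 ± 0.55 (adjusted p = 0.0026). Ednrb, the endothelin receptor of astrocytes, had 2 insertions against 529, a rate 8.78-fold lower (2.42 to 72.7). Notch2 had 4 against 420 (adjusted p = 0.021) and lost its call with total scaling (adjusted p = 0.072) and without Rbp4Cre_TRAP animal 1 or 4 (adjusted p = 0.12 and 0.082). The ligand gene Jag1 and the receptor genes Notch1, Notch3 and Fgfr2 were not called.

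Loci of layer 5 and the deep layers mostly showed no detected difference. Of 28 genes 25 were tested, 3 were higher and 2 lower, where 0.732% and 5.39% of all loci were. The median log2 fold change was 0.10, against -0.28 over all loci. With total scaling 4 were higher and 1 lower, the median was 0.36, and Tshz2, a zinc finger gene, was the fourth. Bcl11b (Ctip2, chr12:107910403-108004145), a factor of subcerebral projection neurons, had 492, 296, 352 and 408 in Rbp4Cre_TRAP and 335 to 405 (median 354) in GFAPCre. The Rbp4Cre_TRAP animals lay on both sides of the GFAPCre range. The log2 fold change was 0.10 ± 0.19 (SE, adjusted p = 0.82), between -0.24 and 0.69 over the 25 alternatives run for Bcl11b and past the threshold in 1, with each position counted once (0.58, adjusted p = 0.046). Rbp4, the gene that gives the line its name, had 3 insertions against 13 and could not be tested. Given the totals of the groups this is a rate 6.95-fold higher in Rbp4Cre_TRAP, with a 95% counting interval of 1.27 to 25.3.

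Fezf2, the zinc finger factor that specifies subcerebral projection neurons (chr14:12338992-12346803), was higher in Rbp4Cre_TRAP. The 4 animals had 228, 296, 264 and 346, from 13, 15, 12 and 11 insertions, and the 6 GFAPCre animals 136 to 173 (median 155). There was no overlap, and the log2 fold change was 0.85 ± 0.23 (SE, adjusted p = 0.011) and 1.103 with total scaling. The Fezf2 call was lost without Rbp4Cre_TRAP animal 2, 3 or 4 (adjusted p = 0.092, 0.061 and 0.085). It was also lost with insertions of at least 2 reads (0.54, adjusted p = 0.29) and with animals thinned to the shallowest (1.22, adjusted p = 0.30), and the Fezf2 log2 fold change was above 0 in all 24 alternatives. In CPM without TMM, Fezf2 stood at 233 to 460 in Rbp4Cre_TRAP and at 85.9 to 163 in GFAPCreNeg, 120 to 184 in Syn1Cre and 137 to 150 in C57bl6J.

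The other 2 higher loci of this list were larger and changed less. Foxp1, a forkhead factor of projection neurons, had 1476, 1936, 1498 and 1697 against 1056 to 1327 (median 1176), or 0.48 ± 0.13 (SE, adjusted p = 0.012). The Foxp1 call was lost without any 1 Rbp4Cre_TRAP animal (adjusted p = 0.051, 0.23, 0.074 and 0.084 without animals 1 to 4), and with insertions of at least 2 reads the value was 0.16 (adjusted p = 0.58). Ldb2, an adaptor of LIM domain factors in layer 5, had 914, 1067, 1123 and 1131 against 697 to 788 (median 761), or 0.48 ± 0.14 (adjusted p = 0.024), and was named after its values were seen. In both genes no animal of one group reached into the other. Of the 2 lower loci, Etv1 (Er81), a factor of layer 5 neurons (chr12:38780082-38870483), had 211, 98.8, 88.1 and 94.3 against 249.3 to 344 (median 297). All 4 Etv1 values lay below GFAPCre, with a log2 fold change of -1.18 ± 0.27 (adjusted p = 0.0022) and -0.94 with total scaling (adjusted p = 0.029). Grik2, a kainate receptor subunit, had 668, 672, 661 and 660 against 864 to 1105 (median 981), or -0.56 ± 0.15 (adjusted p = 0.015), and was not past the threshold with total scaling (-0.30, adjusted p = 0.30). Loci of layer 6 such as Tle4, Foxp2 and Tbr1 were not called. Ntsr1 and Rprm, also layer 6 genes, had 12 insertions each and large positive values with wide errors (1.11 ± 0.51 and 1.39 ± 0.51, SE, adjusted p = 0.21 and 0.084).

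Among 16 upper layer genes 15 were tested, and 1 was higher and 1 lower under both scalings. Over all loci 0.732% were higher and 5.39% lower, and 1.64% and 2.56% with total scaling. Cux1, a homeobox factor of upper layers, had 0, 59.3, 66.1 and 0 against 110 to 189 (median 151), from 6 insertions, or -2.19 ± 0.47 (SE, adjusted p = 0.00085). Its locus as counted overlaps Sh2b2. Cux2 and Rorb, which mark upper layers and layer 4, were not called. The median of the upper layer list was -0.20.

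General neuronal loci moved both ways. Of 23 genes of the pan-neuronal and glutamatergic list 21 were tested, 1 was higher and 4 lower, but with total scaling 4 were higher and 1 lower. Of all loci 0.732% were higher and 5.39% lower, and 1.64% and 2.56% with total scaling. The median log2 fold change of the list was -0.15 and 0.10. Bhlhe22, a helix-loop-helix factor of cortical projection neurons, had 580, 533, 595 and 346 against 265 to 360 (median 313), or 0.75 ± 0.18 (SE, adjusted p = 0.0036), with 1 animal inside the GFAPCre range, and the Bhlhe22 call was lost without Rbp4Cre_TRAP animal 1 or 3 (adjusted p = 0.087 and 0.079). Gria2, a glutamate receptor subunit, Map2, a dendrite protein, and Syt1, a vesicle protein, passed only relative to the TMM scale (-0.58, -0.53 and -0.49), and none of the 3 did with total scaling (-0.32, -0.28 and -0.23). The Gria2 value was 0.087 with each position counted once. Map2 lost its call without Rbp4Cre_TRAP animal 2 or 4, or without any GFAPCre animal other than 3.

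**Figure D4:**
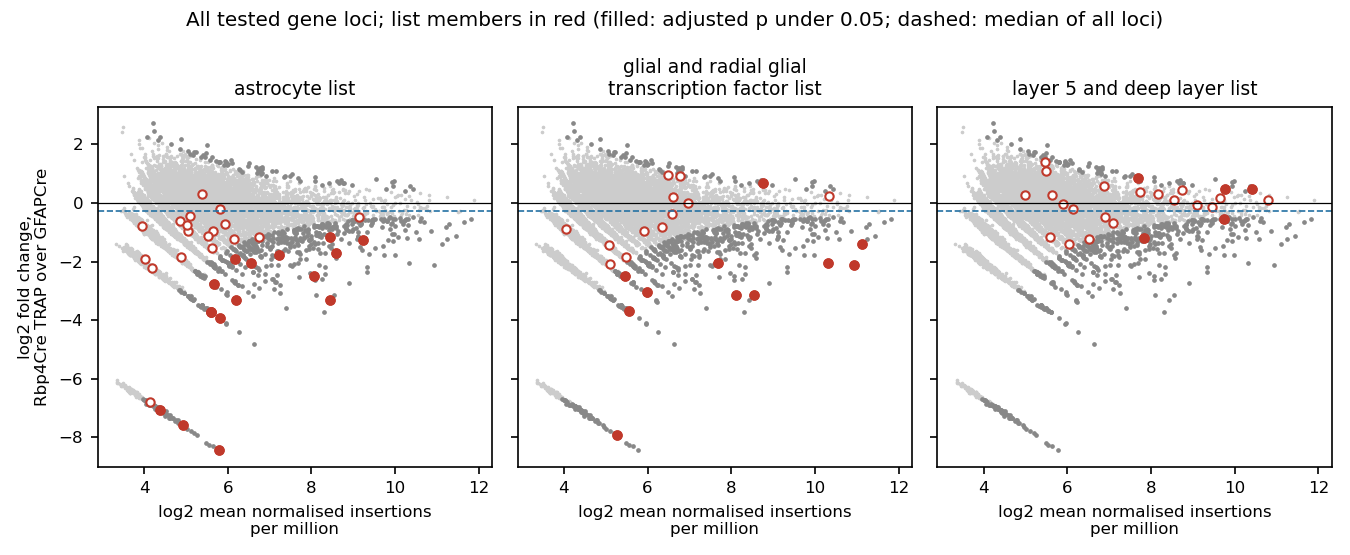
Log2 fold change of Rbp4Cre_TRAP over GFAPCre against the log2 mean normalised count (CPM) for the 10110 tested loci (light grey, called loci dark grey), with the tested members of 3 lists in red, filled where the adjusted p is under 0.05. Members of the astrocyte list and of the glial transcription factor list lie mostly below the dashed median of all loci (-0.28), and those of the layer 5 and deep layer list lie around 0. The separate bands at the bottom are loci with 0 or 1 Rbp4Cre_TRAP insertion, whose fitted fold changes depend on the prior count.

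Loci of GABAergic interneurons were thinly covered in both groups, and 10 of 23 could be tested. Of these, 3 were lower and none higher, but with total scaling 1 was lower and 1, Satb1, higher. The shares over all loci were 5.39% lower and 0.732% higher, and 2.56% and 1.64% with total scaling. Sox6, a factor that interneurons, glial precursors and astrocytes use, had 176, 98.8, 66.1 and 62.8 against 429 to 1147 (median 675), or -2.74 ± 0.31 (SE, adjusted p = 5.6e-11), and passed in all 25 alternatives run. Erbb4, a neuregulin receptor, had 87.8, 59.3, 132 and 62.8 against 169 to 229 (median 196), or -1.19 ± 0.32 (adjusted p = 0.0099, but 0.073 with total scaling and 0.056 without Rbp4Cre_TRAP animal 2). Dlx2, a homeobox factor of interneurons whose locus as counted overlaps Dlx1, had 0 insertions against 147 and was at least 1.63-fold lower (adjusted p = 0.033, but 0.067 with total scaling, and not called without any 1 Rbp4Cre_TRAP animal). The GABA synthesis genes Gad1 and Gad2 had 0 and 1 insertions against 60 and 61 and were not tested.

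Markers of cell types outside the question were near the limit of what the depth allows. The counts below stand beside 5.39% of all loci called lower and 0.732% called higher, and 2.56% and 1.64% with total scaling. Of the oligodendrocyte list 9 of 18 were tested and 2 were lower, Olig2 (0 insertions against 177) and Nkx2-2 (0 against 174), both factors of the oligodendrocyte lineage, at least 1.96-fold and 1.92-fold lower. Neither passed with total scaling (adjusted p = 0.074 and 0.055) or without any 1 Rbp4Cre_TRAP animal, and the myelin gene Mbp at -0.10 ± 0.30 (SE) was not called. Of the 14 genes of microglia, endothelium and pericytes 4 were tested. Sall1, a factor of microglia that radial glia and astrocytes also use, was the 1 lower locus, with 17.6, 39.5, 22.0 and 0 against 155 to 412 (median 245), or -3.59 ± 0.52 (adjusted p = 2.3e-07). The microglial genes Cx3cr1, Tmem119 and C1qa had 0 insertions in Rbp4Cre_TRAP and 14, 6 and 16 in GFAPCre. Flt1, an endothelial receptor, had 52.7, 39.5, 88.1 and 31.4 against 9.69 to 29.5 (median 17.7) from 10 insertions, or 1.44 ± 0.57 (adjusted p = 0.12, but 0.044 without GFAPCre animal 2). Of 14 striatal genes 8 were tested and Pde10a, a phosphodiesterase of striatal neurons, was lower (-1.21 ± 0.28, SE, adjusted p = 0.0025). The striatal factor Meis2, with most insertions of that list, was not called (-0.26 ± 0.15, adjusted p = 0.34). Of 18 thalamic and hypothalamic genes 5 were tested, and the neighbours Zic1 and Zic4, whose loci share insertions, had 0 against 148 and 165, at least 1.64-fold and 1.83-fold lower. Both lost their call with total scaling (adjusted p = 0.089 and 0.066) and without any 1 Rbp4Cre_TRAP animal, and Zic1 also without GFAPCre animal 4 or 5.

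Summed over all loci of a list, overlaps counted once, the levels can be set beside the other cortex groups on 1 scale, CPM over chromosomes 1 to 19 without TMM. Astrocyte loci held 1988, 1743, 1984 and 2842 CPM in Rbp4Cre_TRAP and 3611 to 6618 (median 4687) in GFAPCre, with no overlap. C57bl6J had 2593 and 2722, Syn1Cre 2728 to 7542 (median 3406) and GFAPCreNeg 6205 to 11764 (median 7128). Glial transcription factor loci had 5319, 5228, 6078 and 6729 against 7431 to 14720.2 (median 10139) in GFAPCre. For both lists Rbp4Cre_TRAP had the lowest median of the 5 groups and GFAPCreNeg the highest. Notch and growth factor loci had 1468, 1499.5, 1322 and 1170.2 against 1969 to 3237 (median 2441).

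The neuronal lists were placed otherwise. Layer 5 and deep layer loci held 10709, 10659, 11699 and 11619 CPM in Rbp4Cre_TRAP, above all GFAPCre animals at 8158 to 9041 (median 8579). C57bl6J had 9753 and 9979, Syn1Cre 8013 to 8922 and GFAPCreNeg 7156 to 8926. On this scale, without TMM, the 4 Rbp4Cre_TRAP animals were above every animal of the other 4 groups. Upper layer loci had 6536, 7133, 6739 and 8108 against 5096 to 6396 (median 5710.1), also without overlap on this scale. Pan-neuronal loci overlapped, at 12159.5, 12564, 12182 and 14335 against 12598 to 14296 (median 13282). GABAergic interneuron loci had 1236, 871, 1221 and 1379 against 1388 to 1967 (median 1678), just below GFAPCre, while Syn1Cre had 3059.5 to 3959. Oligodendrocyte loci overlapped at 376, 547, 331 and 376 against 368 to 504 (median 446). Microglia, endothelial and pericyte loci had 125, 142, 178 and 167 against 296 to 507 (median 350), from 4 to 7 insertions an animal, and 1172 of the GFAPCre insertions in this list were in Sall1. These placings depend on the scale. The TMM factors of the loci were 1.02, 1.03, 1.15 and 1.33 in Rbp4Cre_TRAP and 0.903 to 0.945 in GFAPCre. When the sums are divided by these factors, the layer 5 and upper layer sums of Rbp4Cre_TRAP and GFAPCre overlap. The pan-neuronal sums then lie lower in Rbp4Cre_TRAP without overlap. No test was made of these sums.

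**Figure D5:**
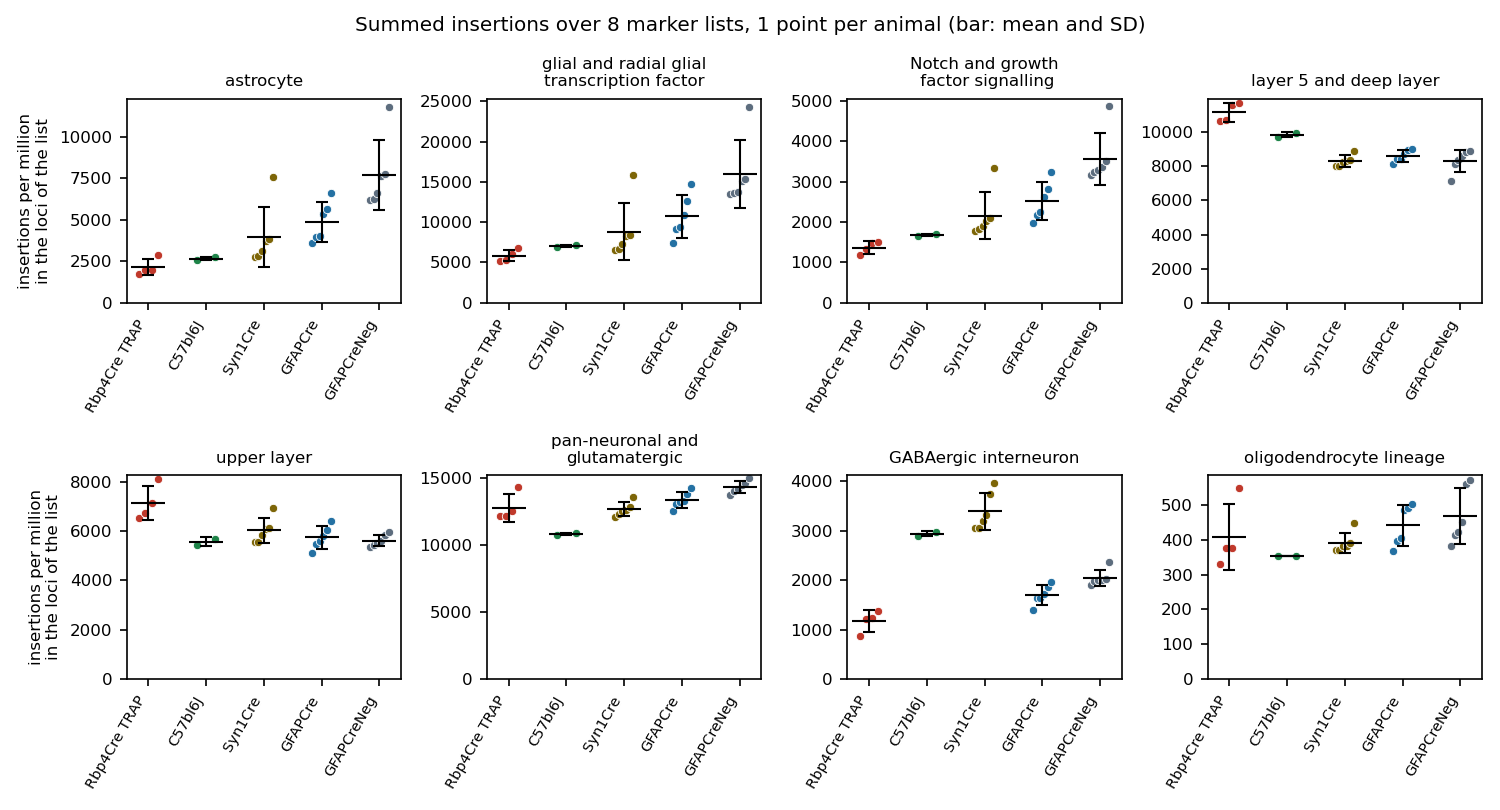
Summed CPM without TMM in the loci of 8 marker lists for the 5 groups, 1 point per animal with the mean and SD of each group. Rbp4Cre_TRAP has the lowest median in the astrocyte and glial transcription factor lists, with animals at 1743 to 2842 and 5228 to 6729, and the highest values in the layer 5 and deep layer list, at 10659 to 11699.

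Beyond the marker lists, the lowest loci by the naming rule (called, without overlap between the animals and at or above the median locus in mean normalised count, met by 490 loci) again held few or no Rbp4Cre_TRAP insertions. Gjb6, Tectb, Rtl1, Nat8, Pax6 and F3 had 0. Tectb, a gene of the tectorial membrane of the ear whose locus as counted overlaps Gucy2g, had 369 in GFAPCre (at least 4.08-fold lower). Rtl1, an imprinted retrotransposon-derived gene, had 367 (at least 4.06-fold). Nat8, an acetyltransferase gene next to Nat8f5, had 354 (at least 3.92-fold), and F3, the gene of tissue factor, which astrocytes express, had 274 (at least 3.03-fold). Sox1, S1pr1, Pde3a and Itpr2 had 1 insertion each. Sox1, a relative of Sox2 in neural progenitors, had 703 in GFAPCre and a rate 23.3-fold lower (95% counting interval 4.17 to 923). S1pr1, a sphingosine phosphate receptor of astrocytes and endothelium, had 543 (18.0-fold lower, 3.22 to 713). Pde3a, a phosphodiesterase, had 460 (15.3-fold lower, 2.73 to 604), and Itpr2, the calcium release channel of astrocytes, had 435 (14.4-fold lower, 2.58 to 571).

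The order of the 5 groups at these loci was not the same throughout. In CPM without TMM, Gjb6 had a median of 188 in GFAPCreNeg, 60.6 in Syn1Cre and 26.8 in C57bl6J. Rtl1 had medians of 65.4, 87.5 and 67.5 in the same groups, and no animal of the other 4 groups had 0 there. Pde3a had medians of 113, 82.1 and 94.2.

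The 10 highest loci by the same rule were genes of no single cell type, and each rested on 11 to 16 Rbp4Cre_TRAP insertions. Ints12, a subunit of the Integrator complex (chr3:133091855-133110988, a locus that overlaps Gstcd and Arhgef38), had 70.3, 98.8, 66.1 and 94.3 against 17.0 to 25.8 (median 19.6). All 4 Ints12 values were above all 6, which the naming rule requires, and the log2 fold change was 1.98 ± 0.47 (SE, adjusted p = 0.0033). The others were Kank2, Ddc, Rnf44, Ptbp1, Selenot, Samd7, Casz1, Rtcb and Nup35, at log2 fold changes of 1.74 down to 1.44 and adjusted p from 0.0155 to 0.0429. Ptbp1 is the splicing regulator that is turned down as neurons form, Ddc makes dopamine and serotonin from their precursors, and Casz1 is a zinc finger factor. As counted, the Ptbp1 locus overlaps Plppr3, that of Ddc Fignl1, that of Casz1 Pex14, and that of Kank2 Spc24 and Dock6. The Rnf44 locus overlaps Cdhr2, that of Nup35 Dusp19, and that of Rtcb several genes, among them Ascl4 and Bpifc. To which gene of a locus the insertions belong was not tested. Each of the 10 passed under total scaling too, where their log2 fold changes were larger (2.22 at Ints12). As that scaling raised the fold changes as a whole, these passes are no separate check. With every animal thinned to the number of insertions of the shallowest and the same loci tested, none of the 10 passed, and each had a log2 fold change above 0 (0.59 to 4.12). The calls of Ddc, Rnf44, Ptbp1, Selenot, Rtcb and Nup35 were lost without any 1 of the 4 Rbp4Cre_TRAP animals. Kank2 lost its call without animal 1, 2 or 3, Samd7 without 1 or 2, and Casz1 without 2 or 3. Ptbp1 also lost its call without GFAPCre animal 4 and Rtcb without GFAPCre animal 2. Ints12 passed whichever of the 10 animals was left out, but not with insertions of at least 2 reads (1.57, adjusted p = 0.12). Kank2, Selenot, Samd7, Casz1 and Rtcb also lost their calls there (adjusted p = 0.11, 0.061, 0.052, 0.49 and 0.61). Ddc, Rnf44, Ptbp1 and Nup35 kept theirs with at least 2 reads.

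Windows of 50 kb show the same comparison without gene boundaries. Of 19446 windows tested with edgeR, 1031 passed (5.3%), 83 higher (0.427%) and 948 lower (4.88%) in Rbp4Cre_TRAP. With insertions of at least 2 reads, 15 were higher and 1422 lower. With total scaling 668 passed (3.44%), 273 higher (1.4%) and 395 lower (2.03%). Without Rbp4Cre_TRAP animal 1, 2, 3 or 4 the calls were 625, 511, 537 and 575. The animals of the groups did not overlap at 404 of the tested windows with Rbp4Cre_TRAP higher (2.08%) and at 2791 with it lower (14.4%). The 5 lowest windows by the naming rule had 0 Rbp4Cre_TRAP insertions. The lowest, chr6:22800001-22850000, has Ptprz1 as its nearest protein-coding gene and had 500 GFAPCre insertions (at least 5.53-fold lower). The next, chr14:57100001-57150000, holds Gjb2 and Gjb6 and had 483 (at least 5.34-fold). A window nearest to Id4 (chr13:48100001-48150000), an inhibitor of differentiation factor, had 467 (at least 5.17-fold), a window nearest to Fam181b (chr7:93000001-93050000) had 456 (at least 5.04-fold) and a window nearest to Ranbp3l (chr15:8850001-8900000) had 389 (at least 4.30-fold). That last window lies on the upstream side of Slc1a3, outside its locus as counted. Each of the 5 passed in all alternatives run for it except the one thinned to the shallowest animal.

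The 5 highest windows held 11 to 16 Rbp4Cre_TRAP insertions each. The highest, chr3:133950001-134000000, has Cxxc4 as its nearest protein-coding gene, with 104, 56.1, 85.8 and 82.6 against 18.0 to 30.1 (median 20.2), or 1.90 ± 0.47 on the log2 scale (SE, adjusted p = 0.0053). Its groups did not overlap, which the naming rule requires, and it lost its call without Rbp4Cre_TRAP animal 1 (adjusted p = 0.086). With insertions of at least 2 reads it fell to 1.06 (adjusted p = 0.34). Thinned to the shallowest animal on the same windows, it was 1.03 (adjusted p = 0.67). A window nearest to Bcl11a, a relative of Bcl11b in cortical neurons (chr11:25000001-25050000), had 52.2, 93.5, 64.4 and 27.5 against 12.9 to 23.8 (median 19.8), or 1.65 ± 0.53 (adjusted p = 0.045). The other 3 hold several genes each, among them Pim3 (chr15:88850001-88900000), Piezo1 (chr8:122550001-122600000) and Gli1 (chr10:127300001-127350000), at 1.80, 1.75 and 1.73. The calls of these 4 windows were lost without any 1 of the 4 Rbp4Cre_TRAP animals and without GFAPCre animal 1, and that of the window by Bcl11a also without GFAPCre animal 3. With insertions of at least 2 reads the windows of Bcl11a (0.64, adjusted p = 0.65) and Piezo1 (1.84, adjusted p = 0.055) did not pass. Those of Pim3 and Gli1 did (adjusted p = 0.012 and 0.027). Thinned on the same windows, none of the 5 passed.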

How the data were processed

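Each deposited table lists transposon insertions of 1 animal with chromosome, position and read number. These are count values as deposited by the authors: per the file headers and values, whole read numbers per insertion, not normalised. Here 1 table line was counted as 1 insertion. The submitters' processing notes name Novoalign, Bowtie2 and the mm10 build, with no role or version. Positions were taken as GRCm38 (mm10): the insertions checked against RefSeq promoter sequences of GRCm38.p6 all lay at TTAA.

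Insertions were counted in 50 kb windows and in loci (protein-coding gene bodies with 10 kb added to each end) of chromosomes 1 to 19. Neighbouring loci can overlap and then share insertions. Tests used edgeR 4.0.16 (quasi-likelihood, TMM, filterByExpr, Benjamini-Hochberg adjusted p under 0.05) in R 4.3.3, with the 10 animals only and no covariates. DESeq2 1.42.0 was an alternative. The scripts were tested on counts simulated from the means and depths of these data, with 200 loci or windows changed 3-fold. Over loci 37.5% of these changes were recovered, 54% of the raised and 21% of the lowered. Over windows 24.5% were recovered, 43% of the raised and 6% of the lowered. A locus that was not called can therefore still differ. For 3 single values an exact permutation test over animals was used. Named loci are the 3 marker genes, the 10 highest and 10 lowest called loci without overlap between animals and with a mean at or above the median, skipping overlapping loci, and of each list up to 4 called members by size of fold change, or the 2 of highest mean count where fewer than 2 were called. Windows named are the 5 highest and 5 lowest by the same rule, more than 200 kb apart. Other genes named in the text were chosen by list membership or after their values were seen. The members and gene lists were chosen with earlier results of these data known. Intervals and floors cover counting error only, and a count of 0 was bounded by 3 insertions over the 4 animals. Other tables of the series were used only for the levels of 3 more groups. Some results that the naming rule picks are not reported here.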

Additional observations from a re-analysis of the deposited data

Results flagged for a closer look

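Of 136 groups of animals examined at the named loci, 9 held an animal far from the rest. In 6 of these a single insertion stood against 0 in the other 3 Rbp4Cre_TRAP animals: Sox1, Pde3a and Id3 at a normalised count of 17.6 in animal 1, S1pr1 and Itpr2 at 22.0 in animal 3, and Pla2g7 at 31.4 in animal 4. A single insertion is flagged by construction, as its gap is the whole range, so no chance rate is set beside the 9. Etv1 in Rbp4Cre_TRAP animal 1 was at 211, while the other 3 animals were at 88.1 to 98.8, all below GFAPCre. In GFAPCre, Rnf44 in animal 5 was at 40.4, with the others at 17.8 to 23.1. Zic1 in GFAPCre animal 3 was at 64.3, with the others at 19.4 to 34.9.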

How the results depend on the processing

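All called single values kept their direction. With GFAPCre animals 1 to 3 only or 4 to 6 only, the difference in log10 insertions was -1.37 and -1.24, the share near gene ends 0.896 and 0.934 points and the share inside genes -6.59 and -7.19 points, each at the smallest p that 4 against 3 animals allow (0.0571 in the exact permutation test). Leaving out 1 animal gave -1.35 to -1.23, 0.810 to 1.02 and -7.12 to -6.73. The 619 called loci became 1223 without a low-count filter, 386 without flanks, 77 with animals thinned to the shallowest, 218 and 250 with GFAPCre animals 1 to 3 or 4 to 6 only, where the filter left 806 and 812 loci, and 446 to 700 leaving out 1 animal. On the same 10110 loci, in alternatives added after seeing the data, thinning called 78 and the GFAPCre subsets 509 and 648. The 1031 windows became 668 with total scaling, 658 with DESeq2, 2512 without a filter, 45 thinned, 552 at 200 kb, 194 and 232 with the GFAPCre subsets, 85 thinned on the same windows (added later), and 511 to 1223 leaving out 1 animal. Meis2 turned to 0.50 (adjusted p = 0.012) with each position counted once, and Gria2 to 0.087 there and 0.023 when thinned with its own filter, but it was -0.023 thinned on the same loci. Of the alternatives for named loci and windows, 1113 kept direction and side of the threshold, 260 lost the call, 7 gained one and 3 turned. The causes were not tested. With the replicate number as a replicate block, 509 loci and 883 windows passed. Same-numbered animals share only a number (correlations of deviations -0.036 to 0.003 over loci and -0.017 to 0.022 over windows). Depth limits low levels: 3 insertions over the 4 Rbp4Cre_TRAP animals are 17.8 CPM.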
